A study of Homo sapiens with 6 samples.

Results

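The genes described here are 44 genes of DNA replication and S phase, taken by their symbols from the deposited table of reads per gene, in which 29845 genes are listed. All 44 were found once each, and all passed the filter on low counts that left 16555 genes for testing. They were measured in 6 RNA-seq libraries of polyadenylated RNA from A549, a human lung epithelial cancer cell line. The 3 control libraries came from cells transfected with the empty pIRES-hrGFP-1a plasmid, and the 3 libraries labelled TFAM-OE from cells given the same plasmid with TFAM fused to a FLAG tag. Both groups therefore received a plasmid with a GFP gene and a lipid reagent, the transfection was transient, and no sorting of transfected cells is described. The libraries hold between 26650854 and 37321956 counted reads. The members had between 155 and 17525 reads in a library, the fewest for CCNE2. The study describes the replicates as biological, but the sources used here do not say whether they were separate transfections, and p-values measure the spread between these samples.

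TFAM, which packages mitochondrial DNA and starts its transcription, is the gene that the plasmid carries (chromosome 10, 58385345 to 58399220, plus strand, GRCh38). It measured 76.1, 70.2 and 72.7 CPM in control replicates 1, 2 and 3, and 71.9, 77.3 and 83.0 CPM in TFAM-OE replicates 1, 2 and 3. CPM values here are read counts scaled to library size by TMM, and the order of the libraries is the same for every gene. The groups overlapped for TFAM, and its fold of TFAM-OE over control was 1.06 with a 95% interval from 0.914 to 1.23 (adjusted p = 0.623 in edgeR, quasi-likelihood). The overexpression is thus not seen in the reads counted on this gene, and the group is written as the libraries labelled TFAM-OE. The study reports that a western blot against the FLAG tag showed the overexpression to be successful. That blot is not analysed here. Whether the counting assigned reads of the plasmid's TFAM to this gene, and which share of the cells took up the plasmid, the sources used here do not say, and this fold does not measure the amount of TFAM protein. The epithelial keratins KRT7, KRT8, KRT18 and KRT19 were abundant, with between 3753 and 106266 reads in a library, whereas EPCAM had between 9 and 32 reads. CDKN2A, which A549 cells have lost, had 1 read in all. Of 5 leukocyte markers 4 were in the table, and their summed level was 3.13 to 3.71 CPM in the controls and 1.11 to 1.79 CPM in the other group. Nearly all of it was CD68, which fell (adjusted p = 0.015), and the defining marker PTPRC had 1 read in all. The part of these markers in the results below was not tested.

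Before a cell copies its DNA, the origin recognition complex, CDC6 and CDT1 load the ring of MCM2 to MCM7 onto replication origins, and geminin (GMNN) blocks a second loading. In S phase CDC45 and the GINS complex turn this ring into the active helicase, polymerase alpha with primase lays the primers, and polymerases delta and epsilon copy the strands with the PCNA clamp that the RFC complex loads. Most of these genes are known targets of E2F transcription factors, which cyclin E and CDK2 release from the retinoblastoma protein, so that their mRNAs rise in proliferating cells. In bulk RNA, more cells in S phase and more RNA per cell cannot be told apart.

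E2F factors bind sites known as TTTCCCGC, TTTCGCGC, TTTGCCGC or TTTGGCGC. These 4 words were searched on both strands in RefSeq promoter windows of GRCh38.p14, from 250 bases before to 50 bases after a gene's start. A window was given for 37 of the 44 genes, and MCM4, MCM5, GINS4, POLD3, RPA2, RPA3 and CCNE2 had none. At least 1 word stood in a window of 20 of the 37 genes (54.1%), against 3.99% of the 27305 genes with a RefSeq promoter window. This background was not limited to the genes tested here. The words can overlap each other, a match is a description of the letters, and binding was not measured. Of the 14 genes with a window that were called higher below, 9 held a word (64.3%), and of the 23 with a window that were not called, 11 did (47.8%). The 9 are shown here because they are the members that both carry the letters and passed the test, with 1 match of each gene in a stretch of 30 bases and the word, or its reverse complement, in capitals:
E2F1, chr20:33686387-33686416, minus strand: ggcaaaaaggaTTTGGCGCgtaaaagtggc
CDC6, chr17:40287875-40287904, plus strand: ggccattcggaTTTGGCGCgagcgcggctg
MCM6, chr2:135876515-135876544, minus strand: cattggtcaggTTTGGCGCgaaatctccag
GINS1, chr20:25407667-25407696, plus strand: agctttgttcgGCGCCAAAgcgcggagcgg
GINS2, chr16:85688967-85688996, minus strand: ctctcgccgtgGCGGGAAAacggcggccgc
POLA2, chr11:65261898-65261927, plus strand: ttggctcccggTTTCGCGCatgcgtgcact
POLE2, chr14:49688201-49688230, minus strand: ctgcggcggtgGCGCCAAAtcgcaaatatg
LIG1, chr19:48170440-48170469, minus strand: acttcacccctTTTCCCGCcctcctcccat
TYMS, chr18:657603-657632, plus strand: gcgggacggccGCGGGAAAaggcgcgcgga

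Genes that did not pass the test also hold such words. PCNA and POLE are shown as examples, and POLE, the catalytic subunit of polymerase epsilon, had the opposite direction:
PCNA, chr20:5126663-5126692, minus strand: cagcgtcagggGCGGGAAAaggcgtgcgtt
POLE, chr12:132687342-132687371, minus strand: tgggtgggagcGCGCCAAAtttctcccctg
POLD1, the member with the largest fold change, held none of the 4 words in its windows. The CCAAT box, read as CCAAT on either strand, stood in windows of 24 of the 37 genes (64.9%), against 39.7% of all genes with a RefSeq promoter window. It was also frequent in windows of the comparison lists described further on, at 16 of 20 mitosis genes (80%) and 37 of 69 other replication genes (53.6%).

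The replication genes were mostly higher in the libraries labelled TFAM-OE. Of the 44 genes, 17 rose past an adjusted p of 0.05 and 0 fell (edgeR's quasi-likelihood test, two-sided, Benjamini-Hochberg over 16555 genes). These 17 are 38.6% of the members, whereas 3.48% of all genes tested were called higher and 4.81% lower. The members were chosen with earlier results of these data known, so the shares in this paragraph describe them and do not test the set. At an unadjusted p of 0.05, 32 members were higher and 0 lower, where 12.2% of all genes tested were higher and 13.2% lower. The log2 fold change was above 0 in 42 of the 44 genes, with a median of 0.33 over the members and -0.01 over all genes tested. Every library labelled TFAM-OE was above every control library in 35 members (79.5%), against 15.8% of all genes tested, and below in 1 member (2.27%), against 15.8%. The changes were small. The folds of the 17 called genes lay between 1.32 and 1.92 with a median of 1.45, and 0 members passed the study's second criterion, a 2-fold change beside the adjusted p. Of all genes tested, 2.51% passed both criteria, 0.447% as higher and 2.07% as lower. DESeq2, limma and edgeR's exact test also gave 0 members past 2-fold. Without control replicate 3, POLD1 alone passed both.

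**Figure D1:**
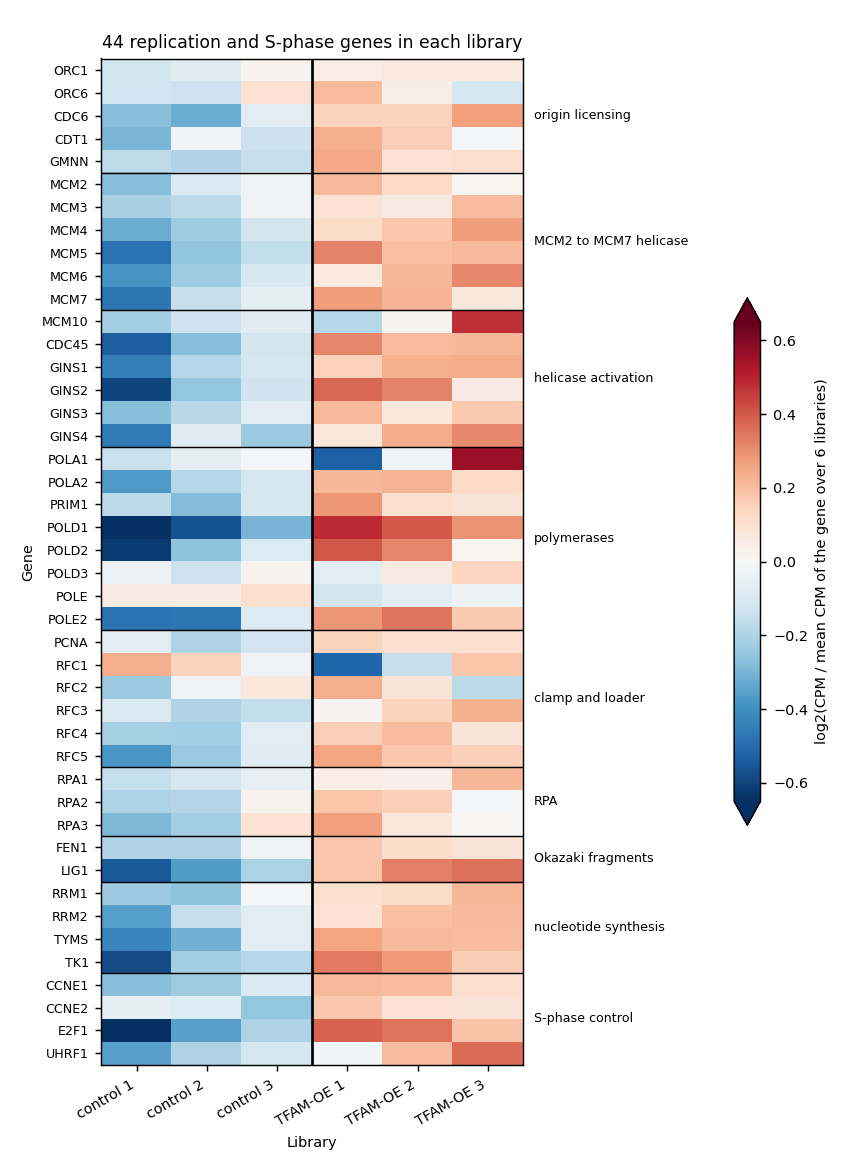
Colours show log2 of the CPM of each gene in each library over the gene's mean CPM in the 6 libraries, with the 44 genes in rows grouped by role and the 6 libraries in columns, controls on the left. Most rows are blue in the 3 controls and red in the 3 libraries labelled TFAM-OE, whereas POLE and RFC1 are not, and POLA1, MCM10 and RFC1 differ widely among the TFAM-OE replicates.

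The number of called genes depended on single libraries. Without control replicate 1 it was 3 (POLD1, LIG1 and E2F1), without control replicate 2 it was 1, and without TFAM-OE replicate 2 it was 1, while the share of all genes called higher fell to 0.535%, 0.391% and 0.526%. Without TFAM-OE replicate 3 it was 27, with 8.43% of all genes called higher, and RFC1 was then called lower. The median log2 fold change of the members lay between 0.31 and 0.39 over the 6 fits that left out 1 library. POLD1 was called in each of these 6 fits.

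**Figure D2:**
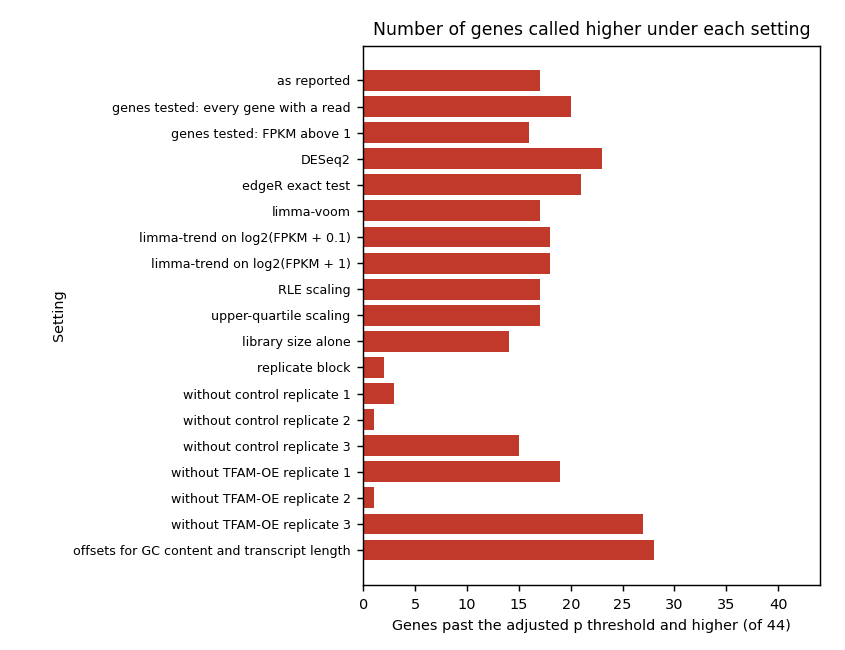
Bars give the number of the 44 genes called higher in the TFAM-OE group at an adjusted p of 0.05, under the reported fit and each of 18 alternatives. The reported fit gave 17 genes, and the bars run from 1 to 28.

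The members' summed level was 3120, 3432 and 3708 CPM in the control libraries and 4495, 4448 and 4385 CPM in those labelled TFAM-OE. In this sum the controls differed more among themselves than the other group did, with an SD of 293.8 CPM against 55.1 CPM (n = 3 each). Among the controls, replicate 1 had the lowest value in 31 of the 44 genes and replicate 3 the highest in 38. Among the libraries labelled TFAM-OE, replicate 1 was highest in 23 genes and lowest in 15. Replicate 3 was highest in 18 and lowest in 21. The narrow sum of that group thus does not mean that its libraries were alike gene by gene. Between whole libraries, log2 CPM correlated at r = 0.985 for TFAM-OE replicates 1 and 3. For TFAM-OE replicate 1 and control replicate 3 it was 0.989, and for pairs of controls at least 0.993. The libraries also differed in base composition and length. The deviation of a library from the gene's mean was correlated with GC content across the tested genes with a GENCODE transcript. Such genes are not independent replicates. In replicates 1, 2 and 3, r was -0.34, -0.06 and -0.06 for the controls and 0.41, 0.23 and -0.17 for TFAM-OE. With the log of transcript length, r was 0.17, 0.09 and -0.08 for the controls and -0.37, -0.11 and 0.28 for TFAM-OE. The members' medians were near those of all genes tested, with a GC content of 47.3% against 48.9% and a length of 3184 bases against 3412. For the 17 called members they were 48.9% and 3735 bases. Single members ranged from 36.9% GC in CCNE2 to 64.3% in CDT1. Of the called genes, POLD1 had 63.9% and E2F1 61.6%, whereas MCM6 had 43.2% and GINS1 39.7%. With offsets for GC content and length in the fit, 28 members were called higher and 0 lower, the 17 among them, where 6.98% of all genes were called higher.

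The proteins that load the MCM ring gave 1 called gene of 5, where 3.48% of all genes tested were called higher. CDC6, the ATPase that recruits CDT1 and the ring to the origin (chromosome 17, 40287879 to 40304657, plus strand), measured 71.2, 68.7 and 82.0 CPM in the controls and 95.1, 94.9 and 103 CPM in the libraries labelled TFAM-OE. The groups did not overlap, and the fold was 1.32 (95% interval 1.13 to 1.55, adjusted p = 0.041). CDT1, the loading factor that is degraded in S phase, and its inhibitor GMNN had folds of 1.22 and 1.25 without overlap, at adjusted p-values of 0.144 and 0.079. ORC1 and ORC6, subunits of the origin recognition complex, had folds of 1.08 and 1.07 (adjusted p = 0.501 and 0.656), and ORC6 overlapped between the groups.

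All 6 subunits of the MCM2 to MCM7 ring separated the groups, with all TFAM-OE libraries above all controls. Of these, 3 rose past the threshold. Of all genes tested, 15.8% separated the groups in this direction and 3.48% were called higher. MCM5 (chromosome 22, 35400134 to 35425431, plus strand) measured 112, 131 and 140.4 CPM in the controls and 196, 179.7 and 181 CPM in the other group. Its fold was 1.45 (95% interval 1.23 to 1.71, adjusted p = 0.017), the largest of the 6 subunits. MCM4 (chromosome 8, 47960185 to 47978160, plus strand) went from 174, 185 and 199.8 CPM to 235, 245 and 262 CPM, a fold of 1.33 (adjusted p = 0.030). MCM6 (chromosome 2, 135839626 to 135876443, minus strand) went from 80.7, 89.8 and 98.3 CPM to 110.0, 123 and 131 CPM, a fold of 1.35 (adjusted p = 0.039). The remaining subunits showed the same direction with a larger error or a smaller fold. MCM7 had a fold of 1.33 (95% interval 1.10 to 1.60, adjusted p = 0.067), and its controls ranged from 298 CPM in replicate 1 to 397 CPM in replicate 3. MCM2 and MCM3 both had a fold of 1.19 (adjusted p = 0.164 and 0.129). Per length, the ring's mRNAs were not at 1 level, since the authors' FPKM in the control averaged 83.0 for MCM7 and between 20.4 and 37.6 for the other 5 subunits.

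The factors that convert the loaded ring into a running helicase gave 4 called genes of 6. The share of all genes tested that were called higher was 3.48%. CDC45, the helicase cofactor (chromosome 22, 19479457 to 19520612, plus strand), measured 20.2, 24.2 and 27 CPM in the controls and 36.5, 33.7 and 34.0 CPM in the libraries labelled TFAM-OE, a fold of 1.46 (95% interval 1.20 to 1.77, adjusted p = 0.029). The 4 GINS subunits form 1 complex that joins CDC45 to the ring, and none of them overlapped between the groups. Of all genes tested, 15.8% likewise lay higher without overlap. GINS2 (chromosome 16, 85676198 to 85690073, minus strand) went from 35.3, 44.9 and 48.8 CPM to 69.3, 66.9 and 55.4 CPM, a fold of 1.48 (adjusted p = 0.036). GINS1 (chromosome 20, 25391008 to 25452700, plus strand) went from 52.3, 62.8 and 66.2 CPM to 79.2, 83.9 and 84.4 CPM, a fold of 1.37 (adjusted p = 0.035). GINS4 (chromosome 8, 41529218 to 41545030, plus strand) went from 37.6, 49.0 and 43.7 CPM to 54.3, 61.2 and 64.3 CPM, a fold of 1.38 (adjusted p = 0.045). In each of these 3 genes the lowest value of all 6 libraries was that of control replicate 1. GINS3 had a fold of 1.25 and missed the threshold (adjusted p = 0.104). MCM10, a scaffold needed for helicase activation, overlapped between the groups, with 28.2, 32.5 and 44.6 CPM in the libraries labelled TFAM-OE against 27.6, 29.2 and 30.4 CPM in the controls (adjusted p = 0.319).

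**Figure D3:**
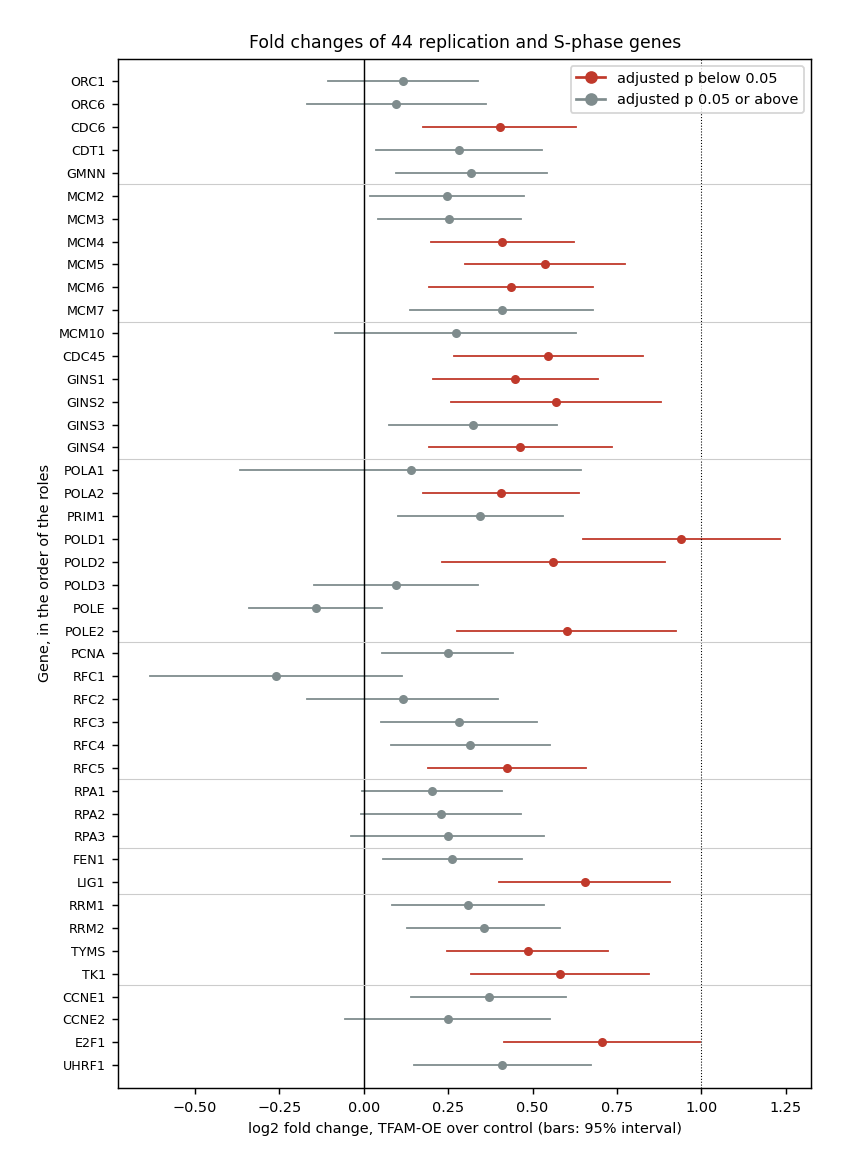
Points give the log2 fold change of TFAM-OE over control for each of the 44 genes and bars its 95% interval, with the 17 genes past the adjusted p threshold in red and a dotted line at a 2-fold change. POLD1 has the highest value, 0.94, and RFC1 the lowest, -0.26.

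Among the polymerases 4 of 8 genes rose past the threshold, where 3.48% of all genes tested were called higher. The log2 fold change was above 0 in 7 of the 8, and 5 lay higher without overlap, against 15.8% of all genes tested. POLD1, the catalytic subunit of polymerase delta (chromosome 19, 50384204 to 50418018, plus strand), measured 56.4, 66.8 and 80.2 CPM in the controls and 139, 131 and 121 CPM in the libraries labelled TFAM-OE. Its fold of 1.92 (95% interval 1.57 to 2.35, log2 fold change 0.94 with a standard error of 0.13, adjusted p = 0.0033) was the largest of the 44 genes. POLD1 was the 1 member called in all 18 alternatives, and its adjusted p was 1.9e-12 when every gene with a read was tested, where edgeR fitted 1 common spread to genes of like abundance. POLD2, the accessory subunit of the same enzyme (chromosome 7, 44114631 to 44124358, minus strand), went from 109, 139.7 and 157 CPM to 222, 209 and 169 CPM, a fold of 1.48 (adjusted p = 0.047). Their partner POLD3 measured 25.6 ± 1.34 CPM against 27.3 ± 1.98 CPM (SD, n = 3 each), with overlapping groups and a fold of 1.07 (95% interval 0.902 to 1.26, adjusted p = 0.630).

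POLE3 and POLE4, subunits that are not members, had folds of 1.16 and 0.989. Among the members, the subunits of polymerase epsilon had log2 fold changes of opposite sign. POLE2, its second subunit (chromosome 14, 49643555 to 49688422, minus strand), measured 8.43, 8.48 and 11.1 CPM in the controls and 14.3, 14.9 and 13.2 CPM in the other group, a fold of 1.52 (adjusted p = 0.035). The catalytic subunit POLE measured 67.0, 66.7 and 69.5 CPM in the controls and 59.5, 61.6 and 63.0 CPM in the libraries labelled TFAM-OE. It was the 1 member with every TFAM-OE library below every control, but its fold of 0.906 (95% interval 0.790 to 1.04) did not pass the test (adjusted p = 0.345). In polymerase alpha, the accessory subunit POLA2 (chromosome 11, 65261913 to 65305959, plus strand) went from 38.1, 43.3 and 45.7 CPM to 57.1, 57.3 and 53.9 CPM, a fold of 1.32 (adjusted p = 0.042). The primase subunit PRIM1 had a fold of 1.27 without overlap (adjusted p = 0.082). The catalytic subunit POLA1 spread widely, since the libraries labelled TFAM-OE ranged from 12 CPM in replicate 1 to 25.5 CPM in replicate 3, around controls of 15.7, 16.6 and 17.2 CPM (adjusted p = 0.744). The difference in fold between subunits of 1 polymerase was not tested.

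Of the clamp and its loader, 1 of 6 genes rose past the threshold, where 3.48% of all genes tested were called higher. The log2 fold change was above 0 in 5 of the 6, and 4 lay higher without overlap, against 15.8% of all genes tested. RFC5, a small subunit of the loader (chromosome 12, 118013588 to 118033130, plus strand), measured 45.5, 50.1 and 56.1 CPM in the controls and 70.7, 66.8 and 66.0 CPM in the libraries labelled TFAM-OE, a fold of 1.34 (95% interval 1.14 to 1.58, adjusted p = 0.038). PCNA, the sliding clamp, had the highest level per length of all members, at a mean FPKM of 149.7 in the control. Its CPM values of 269, 245 and 259 in the controls lay below 311, 303 and 304 in the other group. The fold of PCNA was 1.19 (95% interval 1.04 to 1.36) and missed the threshold (adjusted p = 0.110). RFC1, the large subunit of the loader, was 1 of the 2 members with a negative log2 fold change, and it measured 32.8, 30.8 and 27.4 CPM in the controls and 19.4, 25.0 and 31.5 CPM in the libraries labelled TFAM-OE. Its groups overlapped through TFAM-OE replicate 3 (fold 0.834, 95% interval 0.644 to 1.08, adjusted p = 0.360). RFC2, RFC3 and RFC4 had folds of 1.08, 1.22 and 1.24 with adjusted p-values between 0.093 and 0.615.

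The single-strand binding trimer RPA, which coats the opened strands, gave 0 called genes of 3 by edgeR's quasi-likelihood test. It also gave 0 at an unadjusted p of 0.05 and 0 by DESeq2 and limma. Of all genes tested, 3.48% were called higher, and 12.2% were higher at the unadjusted p. RPA3 had the largest log2 fold change of the trimer, 0.25, at 42.8 ± 6.29 CPM in the controls and 50.9 ± 4.88 CPM in the other group (SD, n = 3 each). RPA2 and RPA3 overlapped between the groups, and RPA1 did not. The folds of RPA1, RPA2 and RPA3 were 1.15, 1.17 and 1.19, and their adjusted p-values lay between 0.206 and 0.256. Okazaki fragments on the lagging strand are trimmed by the nuclease FEN1 and sealed by the ligase LIG1. LIG1 (chromosome 19, 48115445 to 48170603, minus strand) rose from 40.3, 45.8 and 51.1 CPM to 66.6, 73.9 and 75.6 CPM. This was a fold of 1.57 (95% interval 1.32 to 1.88, adjusted p = 0.0092), the third largest among the members after POLD1 and E2F1. FEN1 measured 109, 109 and 123 CPM in the controls and 141, 135 and 132 CPM in the other group, a fold of 1.20 (adjusted p = 0.109).

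Both enzymes of thymidylate supply among the members rose. TK1, the thymidine kinase of the salvage pathway (chromosome 17, 78174091 to 78187233, minus strand), measured 126, 161 and 166 CPM in the controls and 239, 229 and 212 CPM in the libraries labelled TFAM-OE, a fold of 1.50 (95% interval 1.25 to 1.80, adjusted p = 0.018). TYMS, the thymidylate synthase of the de novo pathway (chromosome 18, 657653 to 673578, plus strand), went from 98.8, 107 and 126 CPM to 159, 154 and 153 CPM, a fold of 1.40 (95% interval 1.19 to 1.65, adjusted p = 0.025). RRM1 and RRM2 are subunits of ribonucleotide reductase, which makes deoxyribonucleotides. Neither overlapped between the groups, with folds of 1.24 and 1.28 at adjusted p-values of 0.088 and 0.060. Summed over the 4 genes, the level was 542.7 ± 59.8 CPM in the control against 736.5 ± 3.90 CPM in the other group (SD, n = 3 each).

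Among the regulators of S phase entry, E2F1, the transcription factor that activates many of the other members (chromosome 20, 33675477 to 33686385, minus strand), measured 38.3, 47.9 and 53.2 CPM in the controls and 79.8, 78.1 and 69.5 CPM in the libraries labelled TFAM-OE. The groups lay well apart, with a fold of 1.63 (95% interval 1.33 to 1.99, log2 fold change 0.71 with a standard error of 0.13, adjusted p = 0.012). CCNE1, the cyclin E that drives cells into S phase, went from 27.2, 27.9 and 30.6 CPM to 37.9, 37.6 and 35.3 CPM and narrowly missed the threshold (fold 1.29, 95% interval 1.10 to 1.52, adjusted p = 0.055). CCNE2, the other cyclin E, had the lowest level of the 44 genes per length, with an FPKM of 1.40 in the control, and a fold of 1.19 (adjusted p = 0.283). UHRF1, which recruits the maintenance DNA methyltransferase to newly copied DNA, had a fold of 1.33 without overlap (adjusted p = 0.060).

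**Figure D4:**
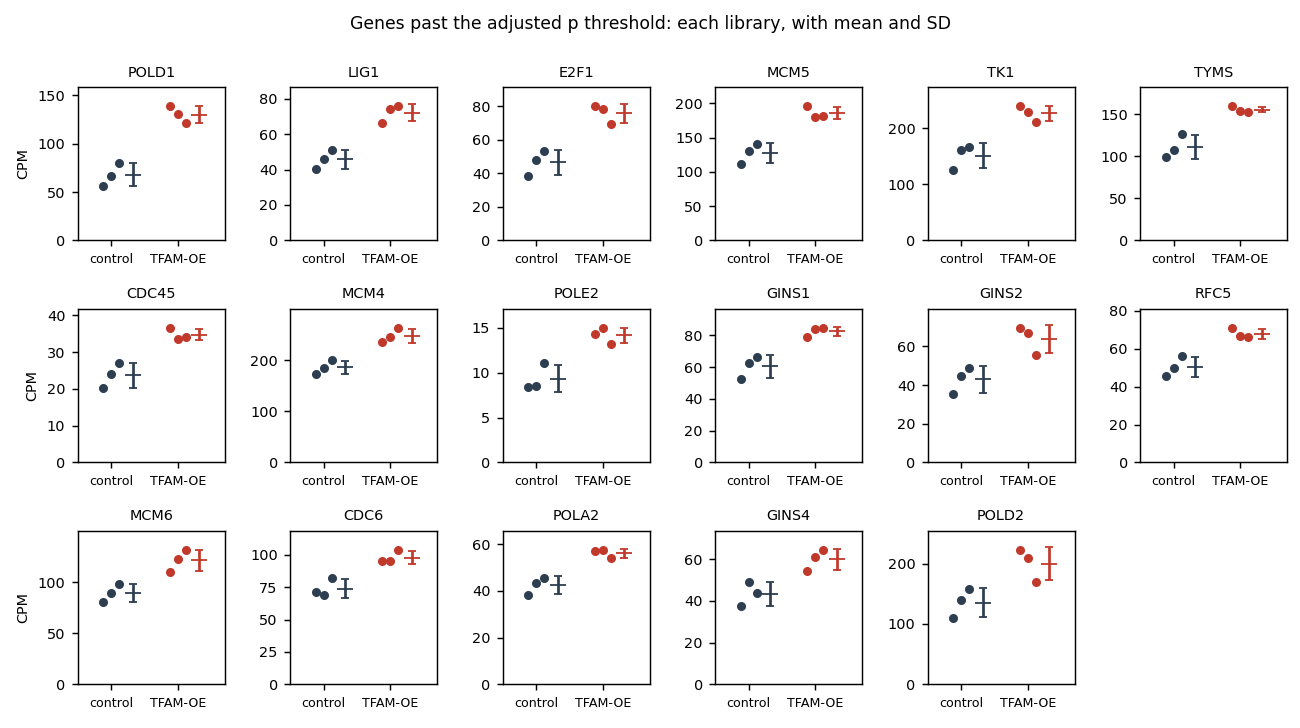
Each panel shows 1 of the 17 genes past the adjusted p threshold, in the order of their adjusted p, with CPM from 0 on the vertical axis, a point for each library (replicates 1, 2 and 3 from left to right) and the mean with its SD beside them. In all 17 panels the 3 libraries labelled TFAM-OE lie above the 3 controls.

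Some members share their place in the genome with other transcribed genes, and the sources used here do not say whether the authors' counting used strand. ENOSF1 overlaps TYMS on the opposite strand with 15.4% as many reads, GSE1 overlaps GINS2 with 116%, WSB2 overlaps RFC5 with 171% and EIF4A2 overlaps RFC4 with 409%. INTS8 and NDUFAF6 overlap CCNE2 with 606% and 220%. NINL overlaps GINS1 with 18.9%, UMAD1 overlaps RPA3 with 18.1% and SMYD4 overlaps RPA1 with 17.7%, also on the opposite strand. On the same strand, FADS2 overlaps FEN1 with 338% and NACA overlaps PRIM1 with 1840%. The values of these members are uncertain to the extent that reads were shared.

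A list of 82 other genes of replication and S phase control moved less evenly. Of these, 12 rose and 3 fell (18.3% called, against 8.29% of all genes tested), with a median log2 fold change of 0.15. By direction, 14.6% were called higher and 3.66% lower, against 3.48% and 4.81% of all genes tested. Leaving out control replicate 1, control replicate 2 or TFAM-OE replicate 2 left 1, 1 and 0 of these genes higher. Leaving out TFAM-OE replicate 1 or 3 gave 20 and 19. Of all genes, 0.535%, 0.391%, 0.526%, 4.44% and 8.43% were called higher in these fits, in the same order. Among those that rose was SHMT1, an enzyme of folate metabolism, from 38.2, 46.1 and 50.6 CPM to 66.7, 65.8 and 69.3 CPM (fold 1.50, adjusted p = 0.017). Others that rose were the helicase RECQL4 (fold 1.53, adjusted p = 0.0094), the helicase RTEL1 (1.73, 0.030), the histone chaperone ASF1B (1.50, 0.019), the clamp loader subunit DSCC1 (1.47, 0.026) and cyclin A2, CCNA2 (1.35, 0.026).

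The 3 that fell were SAMHD1, CMPK2 and CDKN1A. SAMHD1 destroys deoxyribonucleotides and thereby restricts viruses, and CMPK2 is a mitochondrial nucleotide kinase. Both are known interferon-stimulated genes, so they do not stand for replication alone. SAMHD1 measured 97.1, 107 and 107 CPM in the controls and 38.9, 39.0 and 38.3 CPM in the other group, which is -1.42 on the log2 scale (adjusted p = 3.1e-05). CMPK2 went from 52.1, 77.3 and 80.9 CPM to 11.0, 8.17 and 5.37 CPM, a log2 fold change of -3.09 (adjusted p = 1.1e-04). CDKN1A, the p21 inhibitor of cyclin-dependent kinases, went from 502, 466 and 419 CPM to 353, 302 and 235 CPM, a fold of 0.642 (adjusted p = 0.027). In the nucleotide group of 13 genes, 2 rose and 2 fell, 15.4% each way against 3.48% higher and 4.81% lower among all genes tested. RRM2B, the reductase subunit of resting cells that p53 induces, overlapped between the groups, with 64.1, 56.1 and 48.7 CPM in the controls and 37.5, 45.5 and 54.6 CPM in the other group (adjusted p = 0.252).

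Genes of mitosis, which peak after S phase, were read beside the replication genes. Of 25 genes, 8 rose and 0 fell, 32% called against 8.29% of all genes tested (3.48% higher), and the median log2 fold change was 0.32. Leaving out control replicate 1, control replicate 2 or TFAM-OE replicate 2 left 1, 0 and 1 called, and leaving out TFAM-OE replicate 3 gave 12. The shares of all genes called higher in these fits were 0.535%, 0.391%, 0.526% and 8.43%. At an unadjusted p of 0.05, 15 were higher and 0 lower, beside the 12.2% and 13.2% of all genes given above. DESeq2, limma and the exact test also called 0 lower. The folds of the 4 with the smallest p-values were 1.53 for CCNB2 and 1.41 for CCNB1, the B cyclins of mitotic entry, 1.54 for the centromeric histone CENPA, and 1.47 for BIRC5, a subunit of the chromosomal passenger complex (adjusted p between 0.0082 and 0.018). The summed level of all 25 mitosis genes lay between 1565 and 1854 CPM in the controls and between 2224 and 2297 CPM in the other group. A difference between the replication and the mitosis genes was not tested, and their medians were 0.33 and 0.32. An E2F word stood in windows of 2 of 20 mitosis genes (10%) and 19 of 69 of the other replication genes (27.5%).

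**Figure D5:**
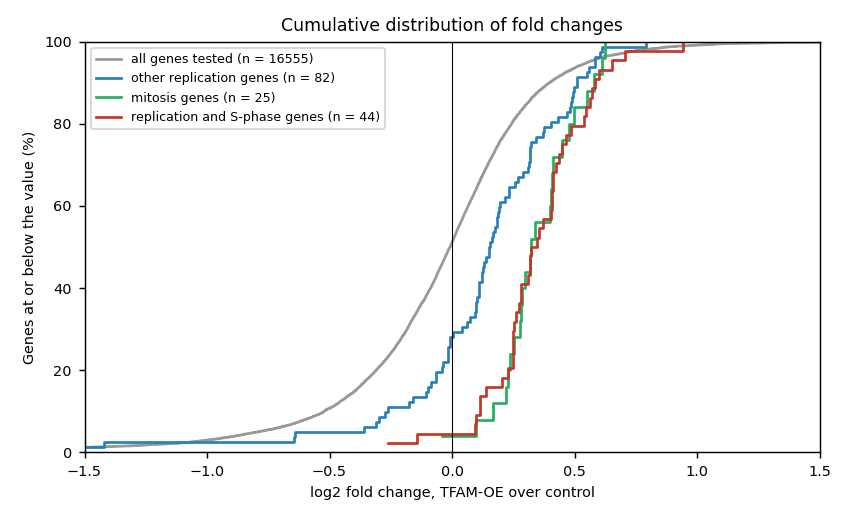
Lines give the percentage of genes at or below each log2 fold change of TFAM-OE over control, for the 44 replication and S-phase genes, 82 other replication genes, 25 mitosis genes and all 16555 genes tested, with the axis cut at 1.5 in both directions. The red and green lines lie together to the right of the others, with medians of 0.33 and 0.32, and all genes centre at -0.01.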

How the data were processed

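Polyadenylated RNA of A549 cells was sequenced in 6 libraries, 3 of the control and 3 labelled TFAM-OE, grouped by their labels. The authors trimmed reads with FASTX-Toolkit (0.0.13), aligned them to GRCh38 with TopHat2, allowing 4 mismatches, and deposited raw read counts per gene for each library. The authors also calculated FPKM from uniquely mapped reads and deposited these values, which were used here for levels between genes. The submitters' processing notes name edgeR as well. For the counting program, the annotation and strand, nothing is given in the sources used here.

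Genes kept by filterByExpr were compared by edgeR (4.0.16, R 4.3.3) in its quasi-likelihood form, with TMM factors and without a block, and all p-values were adjusted over the 16555 genes tested. The filter was preferred because a fit on every gene with a read gave 1 common spread. Standard errors and 95% intervals come from this fit, as the log2 fold change over the root of F. Interval bounds and p-values cover the spread between libraries only.

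The members and all gene lists were chosen with earlier results of these data known, and the rules for naming genes were fixed with them: every member, all members past the threshold with values in each library, the member with the largest change in each role, and set numbers of other genes by p-value. MCM7, POLE, POLA1, PCNA, RFC1, MCM10, FEN1, CCNE1 and the promoter sites were chosen for fuller values after these were seen. The tests were tried on simulated data. Coordinates come from GENCODE 44, which held 97.2% of the gene IDs, and promoters from RefSeq. Alternatives included edgeR's exact test, DESeq2 (1.42.0), limma (3.58.1) as voom and on log2(FPKM + 0.1) and log2(FPKM + 1), other scalings and filters, the replicate block and each library left out. A fit with offsets for transcript length and GC content was chosen after seeing the data. No 2 libraries were duplicates, and replicate counts differed by more than sampling noise in every pair. A gene that the naming rule selects is not reported here.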

Additional observations from a re-analysis of the deposited data

How the results depend on the processing

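Of the 44 members, 41 had a positive log2 fold change under the reported fit and all 18 alternatives, POLE and RFC1 a negative one throughout, and POLA1 both signs. The count of members called higher lay between 14, by library size alone, and 23, with DESeq2, over the other tools, scalings and filters. Of all genes, 2.98% and 5.63% were called higher in these 2 fits. The offsets for GC content and transcript length, with 6.98% of all genes called higher, gave 28 members, 20 other replication genes and 16 mitosis genes called higher. With the replicate number as a block these counts were 2 (POLD1 and LIG1), 0 and 0, and 0.447% of all genes were called higher. The sources used here do not say whether the numbers pair the samples. The deviations of same-numbered libraries correlated at -0.30, 0.04 and -0.36. Those of control replicate 3 and TFAM-OE replicate 1 correlated at 0.34, as did those of control replicate 1 and TFAM-OE replicate 3. With 3 libraries a group, and deviations that also followed GC content and length, these correlations cannot decide whether the samples are paired. Why calls were lost under the block was not tested. Leaving out 1 library in turn gave between 1 and 27 members called higher, 0 to 1 lower and 0 to 1 past 2-fold. The same fits gave between 0 and 20 other replication genes higher and 2 to 7 lower, and between 0 and 12 mitosis genes higher. In these fits, 0.391% to 8.43% of all genes were called higher. Over all genes, 796 were lower and 576 higher, against 1485 and 1034 with every gene with a read, 1105 and 932 with DESeq2, 1236 and 980 with the exact test and 285 and 74 with the block. TFAM passed the threshold under none of the alternatives. Of 792 values of single members under the alternatives, 73 lost and 45 gained a call and 0 changed the sign of a called gene. With 3 libraries a group, the standard errors of the members' log2 fold changes ran from 0.09 to 0.23, which limits what could be called.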
